A study of Mus musculus with 8 samples.

Results

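Crypt cells of the mouse intestine that carried much EphB2 on their surface were compared with crypt cells that carried little. Cells were chosen by the sort gate named in the labels, so the groups, written EphB2 High and EphB2 Low, hold 2 arrays each, 4 of the 8 arrays of the series. The labels give C57BL/6 as the strain for every array. Intestinal epithelium was dissociated with EDTA, Dispase and DNase, the cells were stained with an antibody against EphB2 and sorted by flow cytometry, RNA was extracted with Trizol, and a small amount of total RNA was amplified isothermally and labelled with biotin before hybridization to Affymetrix mouse arrays. No age, sex or number of animals is given in the labels, and nothing in them says that the arrays of a group came from separate animals, so p-values here reflect array-to-array spread, which could be of technical origin only. Replicate 1 of each EphB2 group belongs to the first hybridization and replicate 2 to the second. A further 2 arrays held EphB2 Medium cells and entered the fit, so that 3 groups shared 1 estimate of the spread. The remaining arrays, 1 of Lgr5 High and 1 of Lgr5 Low cells from mice with green fluorescent protein knocked into the Lgr5 gene, are given as values only.

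EphB2 is a receptor tyrosine kinase for ephrin-B ligands. Wnt signalling at the crypt base drives its expression, and its level falls along the crypt towards the villus, where ephrin-B is high, which keeps dividing cells and differentiating cells apart. Stem cells and Paneth cells sit at the base, rapidly dividing progenitors above them, and cells that take on absorptive, mucus-secreting or hormone-secreting functions lie nearer the villus.

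Values are RMA log2 signals, in which a difference of 1 is 2-fold. A call means a limma adjusted p below 0.05, with Benjamini-Hochberg adjustment over 18193 genes, each read from its brightest probe set naming exactly 1 gene. For every gene whose 4 array values are given below, the arrays of the groups did not overlap. A difference is EphB2 High minus EphB2 Low, given ± limma's standard error, with 2 arrays per group. Array medians over the deposited table lay between 6.12 and 6.195, and since RMA forces such equality, a change in total RNA per cell could not be seen. In sorted bulk cells, fewer cells of a type and less RNA per cell cannot be told apart. The labels were set beside markers, which were chosen with earlier results of these data known, so this is no independent check. Ephb2 had no probe set naming it alone and was not analysed here. All 10 crypt base stem cell markers were higher in EphB2 High, all 13 enterocyte markers were lower, and 6 of 7 Paneth cell markers were higher. The 3 erythroid markers had summed linear signals of 49 to 64, and the medians of the lymphocyte, myeloid and stromal lists lay between 4.20 and 4.92 on every array. The summed signals of the 14 stromal and endothelial markers were 716 to 1236 on the EphB2 High and 1256 to 2145 on the EphB2 Low arrays, with 1 marker higher and 0 lower. Of 13 myeloid markers 3 were higher and 1 lower, with summed signals of 2491 to 2888 on the EphB2 High and 1375 to 1390 on the EphB2 Low arrays, and without either EphB2 High array 1 was higher and 0 lower. Of 9 goblet cell markers 2 were higher and 4 lower, and without the second EphB2 High array 1 was lower.

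EphB2 High and EphB2 Low cells differed in a large share of the transcriptome. Of 18193 genes, 6792 were called, which is 37.3%. Of these, 4010 were higher in EphB2 High (22.0%) and 2782 lower (15.3%). A difference of at least 2-fold was present in 3374 called genes (18.5%), with 2035 higher (11.2%) and 1339 lower (7.36%). The lower side reached further: 512 genes were higher and 492 lower by at least 4-fold, but 7 were higher and 89 lower by at least 16-fold. Fewer genes were called in both directions without the second EphB2 High array, and also with any other of the 6 arrays of the fit left out, as given at the end. The arrays of the groups did not overlap for 12379 genes (68.0%), so lack of overlap with 2 arrays a group is common and tells little by itself. The median difference over all genes was 0.01. Median centring of each array over genes shifted every difference by -0.287, and the split of calls then turned from 59.0% higher to 35.0% higher, with 2691 higher and 4993 lower. Quantile normalization gave 3668 higher and 3017 lower calls, 54.9% of them higher, and a median difference of 0.004. The balance between higher and lower calls therefore depends on the normalization. List counts of the main fit are read against 22.0% and 15.3%. Those after median centring are read against the 2691 higher and 4993 lower calls over all genes in that setting. Those with an array left out are read against the fewer calls over all genes, and a loss particular to a list was not tested.

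Of all genes, 79.1% had the same sign within the first and within the second hybridization. The 4010 higher and 2782 lower calls all did, but a call was made on these same 4 arrays and all but fixes that. Across genes, which are not independent replicates, the differences of the hybridizations correlated at 0.914, and of the genes apart by at least 2-fold in both, 2753 had the same sign and 0 the opposite. EphB2 Medium cells lay between the other groups for 1996 of the 2035 genes higher by at least 2-fold and for 1275 of the 1339 genes lower by at least 2-fold.

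**Figure D1:**
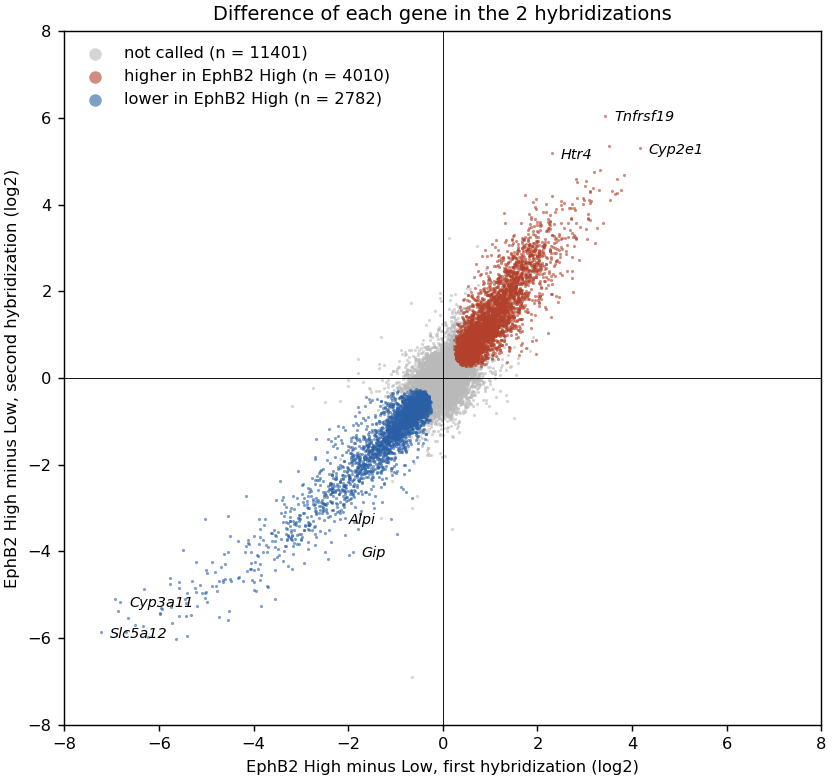
Each point is 1 of 18193 genes, with its EphB2 High minus EphB2 Low difference (log2) in the first hybridization on the horizontal axis and in the second on the vertical axis. Called genes, red where higher and blue where lower, lie in the quadrants where the hybridizations have the same sign, with Tnfrsf19 at 3.43 and 6.05 and Slc5a12 at -7.22 and -5.87.

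Of the genes with the widest differences, Tnfrsf19, a TNF receptor family member of crypt base cells, read 9.72 and 10.07 on the EphB2 High arrays and 6.29 and 4.02 on the EphB2 Low arrays, and was 26.7-fold higher (4.74 ± 0.70, adjusted p = 0.00386). Its EphB2 Low arrays differed from each other by more than 2 units, yet both lay below the EphB2 High arrays. The serotonin receptor gene Htr4 read 8.55 and 9.28 on the EphB2 High arrays and 6.25 and 4.09 on the EphB2 Low arrays, a difference of 3.74 ± 0.68, and the call was lost without the second EphB2 High array (adjusted p = 0.0506). Sorbs2, an adaptor of the actin skeleton, differed by 3.71 ± 0.33, the cell cycle regulator Rgcc by 3.71 ± 0.28, and the Rac1-binding protein gene Cyria by 3.70 ± 0.29. On the lower side, Slc5a12, a sodium-coupled monocarboxylate transporter, read 3.86 and 4.83 on the EphB2 High arrays and 11.08 and 10.70 on the EphB2 Low arrays and fell by 6.54 ± 0.36. Slc2a2, the basolateral glucose transporter, read 6.67 and 7.53 on the EphB2 High arrays and 12.61 and 12.85 on the EphB2 Low arrays, a fall of 49.7-fold (adjusted p = 0.000231). The inositol transporter Slc5a11 read 6.00 and 6.03 on the EphB2 High arrays and 11.43 and 11.52 on the EphB2 Low arrays and fell by 5.46 ± 0.11 (adjusted p = 6.84e-05). The organic cation exporter Slc47a1 fell by 5.51 ± 0.17 and the N-acetyltransferase family member Nat8f5 by 5.52 ± 0.27. Cyp3a11, a cytochrome P450 of drug and steroid oxidation, read 4.90 and 7.20 on the EphB2 High arrays and 11.71 and 12.36 on the EphB2 Low arrays, a fall of 5.99 ± 0.76. Slc5a4a and Slc5a4b, close paralogues of the sodium-glucose cotransporter family, fell by 5.59 ± 0.53 and 5.70 ± 0.42, and whether their probe sets tell them apart was not tested.

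Start site regions of 4 genes from these sides are shown, because they hold the short motifs whose shares are given next. The sequences are RefSeq promoters of GRCm38.p6, around the start, 5′ to 3′ on the strand of the gene, with motif matches in capitals. Alpi encodes intestinal alkaline phosphatase, Ckap2 a spindle protein and Mex3a an RNA-binding protein. Alpi (chr1:87101557-87101856, minus strand) and Cyp3a11 (chr5:145879805-145880104, minus strand) are from the lower side, and Ckap2 (chr8:22185770-22186069, minus strand) and Mex3a (chr3:88531696-88531995, plus strand) from the higher side.
Alpi: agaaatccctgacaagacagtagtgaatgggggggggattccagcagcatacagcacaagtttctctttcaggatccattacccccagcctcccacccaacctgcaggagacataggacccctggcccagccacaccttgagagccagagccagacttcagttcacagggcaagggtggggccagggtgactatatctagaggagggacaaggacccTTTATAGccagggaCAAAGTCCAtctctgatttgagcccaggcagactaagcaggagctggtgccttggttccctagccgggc
Cyp3a11: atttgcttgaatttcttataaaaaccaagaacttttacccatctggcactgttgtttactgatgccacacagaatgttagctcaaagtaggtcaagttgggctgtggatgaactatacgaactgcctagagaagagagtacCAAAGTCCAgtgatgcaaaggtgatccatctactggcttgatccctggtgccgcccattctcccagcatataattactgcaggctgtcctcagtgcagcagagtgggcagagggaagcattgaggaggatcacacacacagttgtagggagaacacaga
Ckap2: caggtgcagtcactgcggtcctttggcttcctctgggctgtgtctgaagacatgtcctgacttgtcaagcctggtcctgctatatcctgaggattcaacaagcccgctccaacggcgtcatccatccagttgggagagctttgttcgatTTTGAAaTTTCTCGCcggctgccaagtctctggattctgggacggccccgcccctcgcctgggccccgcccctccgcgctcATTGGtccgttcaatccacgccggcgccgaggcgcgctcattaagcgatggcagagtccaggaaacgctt
Mex3a: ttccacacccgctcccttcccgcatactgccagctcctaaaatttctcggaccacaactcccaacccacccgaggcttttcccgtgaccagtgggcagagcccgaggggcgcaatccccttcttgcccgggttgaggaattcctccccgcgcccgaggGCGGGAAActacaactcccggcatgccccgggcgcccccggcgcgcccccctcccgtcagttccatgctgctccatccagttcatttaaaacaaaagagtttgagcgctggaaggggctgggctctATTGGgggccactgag

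Motifs were searched on both strands as exact letters. The HNF4 motif CAAAGTCCA, in capitals in Alpi and Cyp3a11, stood in 0.491% of 18109 promoters of genes tested, in 13 of 502 promoters of genes at least 4-fold lower (2.59%) and in 0 of 538 promoters of genes at least 4-fold higher. The E2F motif TTTNNCGC, in capitals in Ckap2 and, on the other strand, in Mex3a, stood in 6.98% of all, 12.3% of the higher and 2.99% of the lower promoters. The cell cycle homology region TTTGAA, which Ckap2 holds beside its E2F match, stood in 13.4% of all, 21.2% of the higher and 14.7% of the lower promoters. The CDX motif TTTATNG, in capitals in Alpi, stood in 8.22% of all, 7.25% of the higher and 60 of 502 lower promoters, and the GATA motif AGATAA in 8.09%, 8.55% and 11.6%. Shares of the CCAAT box (CCAAT, seen as ATTGG in Ckap2 and Mex3a) were 37.4%, 42.6% and 40.0%. The TCF motif ATCAAAG stood in 2.93%, 4.28% and 2.79%, and the E-box CACGTG in 8.72%, 7.99% and 7.77%. A long palindromic HNF1 motif matched 0 promoters. Promoters were listed for 14452 of the 18193 genes, 413 of the 512 higher and 391 of the 492 lower. A match is a run of letters in this window and not a measured site, and shares were not tested.

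**Figure D2:**
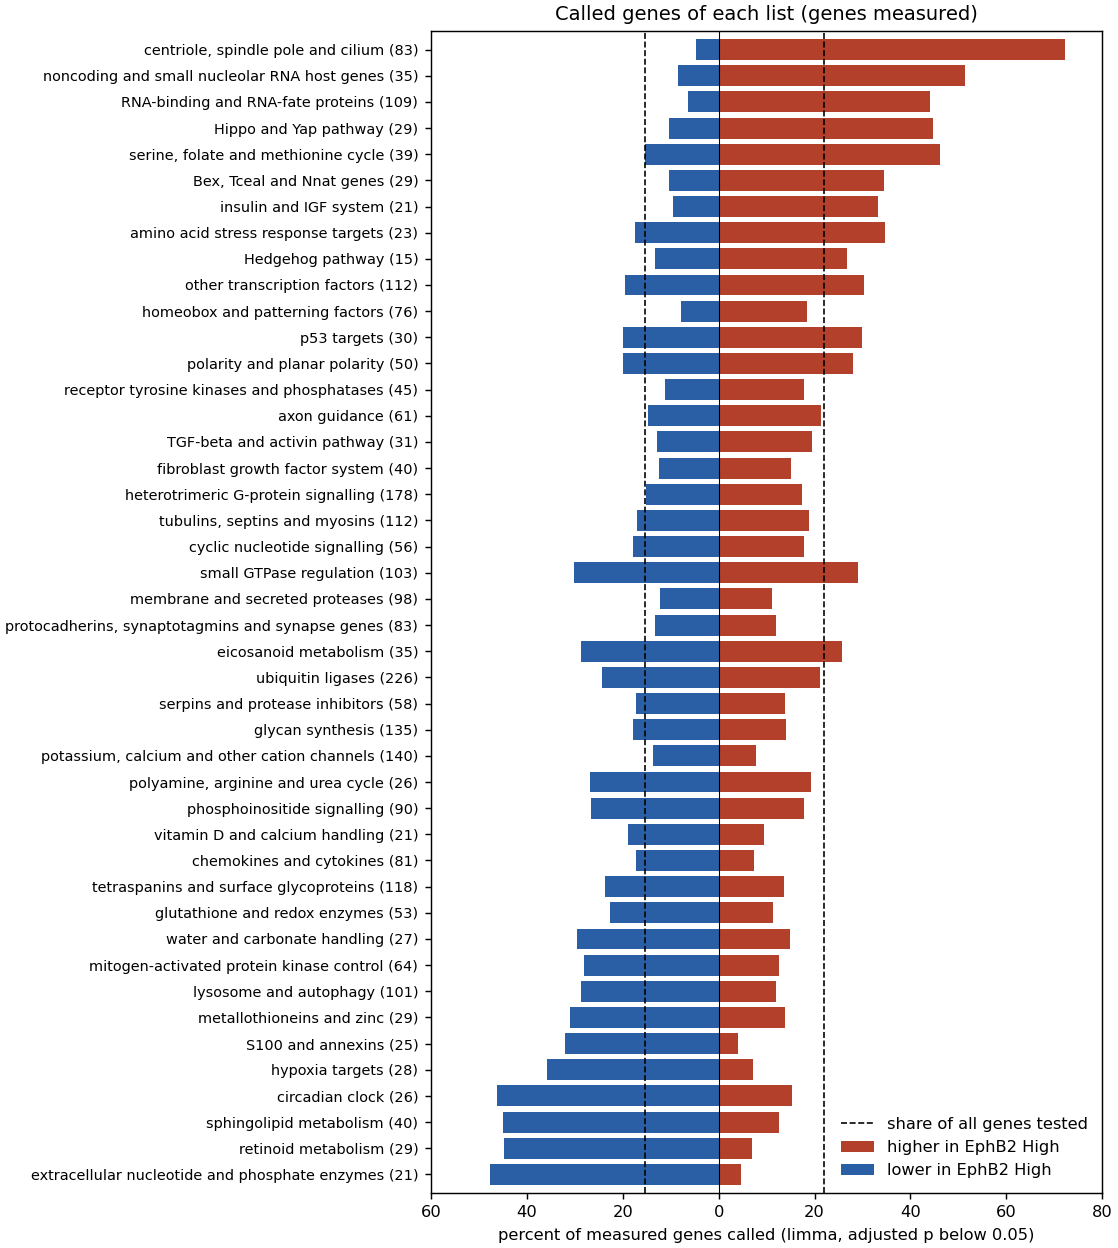
Bars give the percent of measured genes called higher (red, right) and lower (blue, left) in EphB2 High for 44 gene lists, with the number of genes measured in brackets. Dashed lines mark the shares over all genes tested, 22.0% higher and 15.3% lower, and the centriole and cilium list at the top reaches furthest beyond its line.

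Genes of the centrosome and cilium were mostly higher in EphB2 High. Of 83 measured, 60 were higher and 4 lower, against 22.0% and 15.3% of all genes, and the list median was 1.26. Centrioles build spindle poles and also anchor the primary cilium, so the list was split by role. Of 40 centriole and pericentriolar genes, 32 were higher and 1 lower. Cep72, a protein of pericentriolar material, read 7.41 and 7.61 on the EphB2 High arrays and 5.35 and 4.12 on the EphB2 Low arrays, a difference of 2.78 ± 0.40 (adjusted p = 0.00374). Plk4, the kinase that starts centriole duplication, read 11.19 and 11.38 on the EphB2 High arrays and 9.70 and 8.27 on the EphB2 Low arrays, a difference of 2.30 ± 0.44, and the call was lost without the second EphB2 High array (adjusted p = 0.0551). In both genes the second EphB2 Low array was the lowest. Of 43 genes of the cilium and its transport, 28 were higher and 3 lower. Ttc21b, a subunit of retrograde ciliary transport, read 8.38 and 8.66 on the EphB2 High arrays and 5.88 and 5.63 on the EphB2 Low arrays (2.77 ± 0.20, adjusted p = 0.000565). The transition zone genes B9d1 and Cc2d2a differed by 2.40 ± 0.27 and 2.38 ± 0.28. Ift172, a subunit of anterograde ciliary transport, went the other way, with 9.09 and 8.89 on the EphB2 High arrays and 10.11 and 10.20 on the EphB2 Low arrays, and fell by 1.17 ± 0.14 (adjusted p = 0.00192). Of the 60 higher and 4 lower calls, 46 held whichever 1 array was left out. Without the second EphB2 High array, 45 were higher and 2 lower.

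Among tubulins, septins and myosins, 21 of 112 were higher and 19 lower, close to the background. Tubulins and microtubule proteins gave 11 of 50 higher, the same share as the background, and 4 lower, while of 50 myosins and tropomyosins 6 were higher and 13 lower. Myo7a, an unconventional myosin that anchors protocadherin links, read 8.99 and 8.79 on the EphB2 High arrays and 10.72 and 11.10 on the EphB2 Low arrays and fell by 2.02 ± 0.16. Myh14, a nonmuscle myosin heavy chain, fell by 1.86 ± 0.16 and Myo15b by 2.60 ± 0.26. Myo1a, the myosin that ties brush border actin to the membrane, fell by 1.23 ± 0.11, from 13.46 and 13.51 on the EphB2 Low arrays to 12.31 and 12.20 on the EphB2 High arrays. The microtubule end-binding protein gene Mapre3 fell by 2.13 ± 0.26, unlike most called genes of its group. The counts were 13 higher and 14 lower without the first EphB2 High array, without the second EphB2 High array 13 and 10, and after median centring 13 and 32.

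RNA-binding and RNA-modifying proteins were higher far more often than lower. Of 109, 48 were higher and 7 lower. Enzymes that modify RNA gave 28 higher and 2 lower of 42, with a median of 0.70. Pus7, a pseudouridine synthase, read 10.71 and 10.96 on the EphB2 High arrays and 8.86 and 8.11 on the EphB2 Low arrays (2.35 ± 0.27, adjusted p = 0.00192). The dihydrouridine synthase gene Dus4l differed by 2.19 ± 0.41, with 8.06 and 6.72 on the EphB2 Low arrays and 9.66 and 9.50 on the EphB2 High arrays. Among regulators of translation and stability, 20 of 67 were higher and 5 lower. Mex3a read 9.06 and 9.35 on the EphB2 High arrays and 5.77 and 5.03 on the EphB2 Low arrays, 14.03-fold higher (adjusted p = 0.000416). Msi1, a translational regulator of neural and intestinal progenitors, read 8.68 and 9.43 on the EphB2 High arrays and 6.61 and 5.89 on the EphB2 Low arrays, a difference of 2.80 ± 0.32. Cpeb3, which binds cytoplasmic polyadenylation elements, fell by 2.30 ± 0.22, with 7.43 and 7.14 on the EphB2 High arrays and 9.33 and 9.85 on the EphB2 Low arrays. Of the list's calls, 33 held whichever 1 array was left out. There were 32 higher and 4 lower calls without the second EphB2 High array, without the second EphB2 Low array 37 and 4, and after median centring 32 and 14.

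Noncoding transcripts and hosts of small nucleolar RNAs gave 18 higher and 3 lower of 35, with a median of 0.54. Small nucleolar RNAs direct the modification of ribosomal RNA and are cut from introns of host genes. The host Snhg16 read 11.11 and 10.90 on the EphB2 High arrays and 9.57 and 8.80 on the EphB2 Low arrays (1.83 ± 0.27, adjusted p = 0.00383). Pvt1, a noncoding gene beside Myc, read 7.33 and 7.66 on the EphB2 High arrays and 3.57 and 3.33 on the EphB2 Low arrays, 16.5-fold higher. Kcnq1ot1, the antisense transcript of the Kcnq1 imprinted domain, differed by 1.92 ± 0.34; whether its probe set also reads the sense transcript was not tested. The lower genes included a nuclear scaffold and a miRNA host. Neat1, the scaffold of paraspeckles, read 10.82 and 10.94 on the EphB2 High arrays and 12.95 and 12.73 on the EphB2 Low arrays and fell by 1.96 ± 0.13 (adjusted p = 0.000387), and Mir22hg, the host of miR-22, fell by 2.91 ± 0.34. Counts moved to 11 higher and 2 lower without the second EphB2 High array.

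The genes given next were named for their mean level over the 4 arrays among those called at least 2-fold apart. Fbl, the methyltransferase of box C/D small nucleolar particles, read 13.46 and 13.48 on the EphB2 High arrays and 12.43 and 12.07 on the EphB2 Low arrays, a difference of 1.22 ± 0.15. Stmn1, which destabilises microtubules, differed by 1.12 ± 0.18, the replication endonuclease gene Fen1 by 1.07 ± 0.19, and Cks2, a cofactor of cyclin-dependent kinases, by 1.05 ± 0.16. The transcription factor Myb differed by 1.21 ± 0.26, although the call was lost without the second EphB2 High array, where the difference was 1.09. On the lower side, the vitamin B12 carrier Tcn2 fell by 1.03 ± 0.14, the triglyceride enzyme Dgat1 by 1.10 ± 0.14, the dipeptidase Cndp2 by 1.605 ± 0.14, the selenium carrier Selenop by 1.65 ± 0.12 and the microvillus scaffold Slc9a3r1 by 1.20 ± 0.15. Reg1, a secreted lectin family member, fell by 1.92 ± 0.24.

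Serine and folate enzymes, which supply one-carbon units for nucleotides and methylation, held more higher than lower calls. Of 39 genes of the serine, folate and methionine cycle, 18 were higher and 6 lower. Serine and glycine genes gave 5 higher and 1 lower of 8, and folate genes 8 higher and 2 lower of 16. Phgdh, the entry enzyme of serine synthesis, read 11.70 and 11.58 on the EphB2 High arrays and 9.003 and 7.66 on the EphB2 Low arrays (3.31 ± 0.41, adjusted p = 0.00235). Psat1, the transaminase that follows it, differed by 1.89 ± 0.36. Mthfd2, the mitochondrial folate enzyme, differed by 1.81 ± 0.18, with -0.14 in the Lgr5 sort. In all 3 the second EphB2 Low array was the lowest. Slc46a1, the proton-coupled folate transporter of the absorptive surface, read 7.92 and 8.04 on the EphB2 High arrays and 11.23 and 11.01 on the EphB2 Low arrays and fell by 3.14 ± 0.13 (adjusted p = 0.000148). Of 15 methionine and transsulfuration genes, 5 were higher and 3 lower. Cbs, which joins homocysteine and serine, read 8.63 and 8.82 on the EphB2 High arrays and 5.91 and 5.49 on the EphB2 Low arrays, a difference of 3.03 ± 0.17. Bhmt, which remethylates homocysteine with betaine, read 4.30 and 3.99 on the EphB2 High arrays and 6.73 and 8.15 on the EphB2 Low arrays and fell by 3.30 ± 0.48, and Sardh, which oxidises sarcosine in mitochondria, fell by 2.45 ± 0.13.

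Targets of the amino acid stress response, which the factor Atf4 controls, gave 8 higher and 4 lower of 23, and share Phgdh, Psat1 and Mthfd2 with the serine and folate genes. Slc7a5, the light chain of a leucine transporter, read 10.12 and 10.64 on the EphB2 High arrays and 8.49 and 7.99 on the EphB2 Low arrays, a difference of 2.14 ± 0.24. Trib3, a pseudokinase target of the same response, went the other way, with 6.23 and 6.32 on the EphB2 High arrays and 9.38 and 9.69 on the EphB2 Low arrays, and fell by 3.26 ± 0.14 (adjusted p = 0.00018). Calls numbered 9 higher and 2 lower without the first EphB2 Low array. Polyamine, arginine and urea cycle genes gave 5 higher and 7 lower of 26. Smox was counted as higher, but a further probe set differed by -0.625 and limma also called it (adjusted p = 0.0351). With the mean of its probe sets Smox differed by 0.105 and was not called, so its direction is not settled. Srm, the spermidine synthase, read 11.51 and 11.38 on the EphB2 High arrays and 9.98 and 9.07 on the EphB2 Low arrays, a difference of 1.92 ± 0.31. Arg2, the mitochondrial arginase, fell by 0.87 ± 0.12, and Sat2, related to polyamine acetyltransferase, by 0.90 ± 0.16. List counts became 3 higher and 5 lower without the first EphB2 High array, without the second EphB2 High array 1 and 4, without the second EphB2 Low array 2 and 5, and after median centring 1 and 11.

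**Figure D3:**
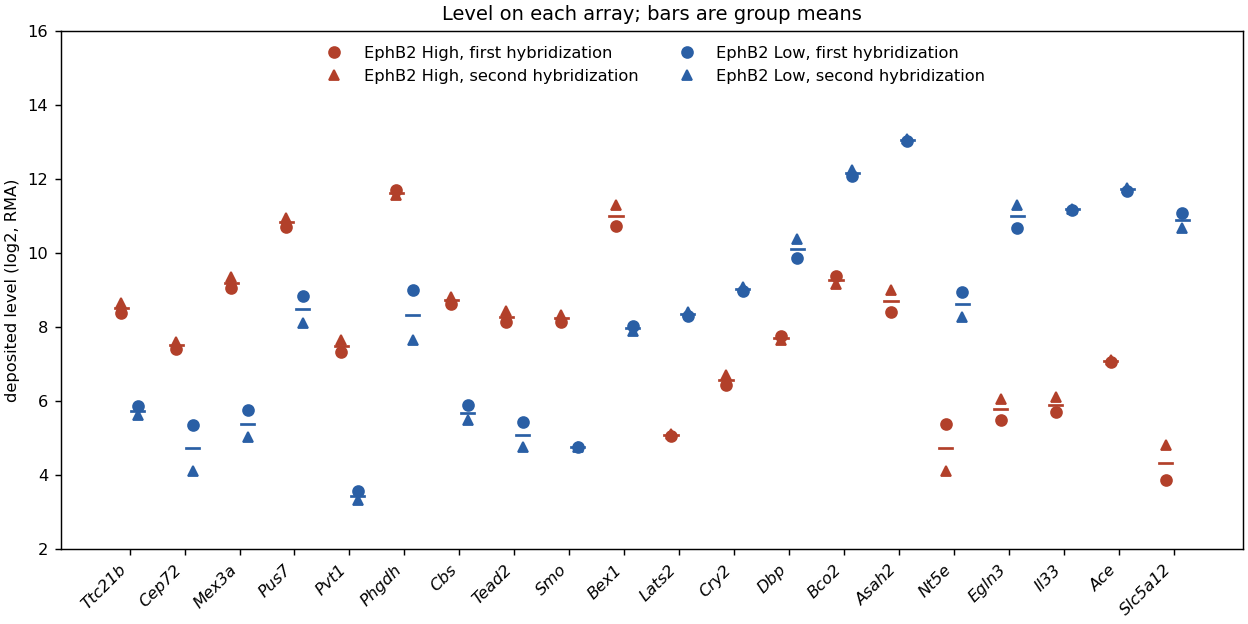
Points are deposited log2 levels on each of the 4 arrays for 20 genes named in the text, with circles for the first and triangles for the second hybridization and bars for group means. For every gene shown the red EphB2 High points and the blue EphB2 Low points do not overlap, and the levels of different genes are not comparable.

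The Hippo kinases restrain Yap and Taz, cofactors that act through Tead factors. Of 29 genes, 13 were higher and 3 lower. The core kinases and adaptors gave 5 higher and 3 lower of 16, the effectors 4 and 0 of 6, and the targets 4 and 0 of 7. Whichever array was left out, 4 effector calls held but only 1 of the 4 target calls, and without the second EphB2 High array the whole list gave 9 higher and 3 lower. Lats2, the kinase that phosphorylates Yap, read 5.07 and 5.11 on the EphB2 High arrays and 8.30 and 8.40 on the EphB2 Low arrays and fell 9.58-fold (adjusted p = 0.000364). Amotl1, an angiomotin that binds Yap, differed by 2.61 ± 0.27. Tead2 read 8.14 and 8.44 on the EphB2 High arrays and 5.43 and 4.77 on the EphB2 Low arrays, a difference of 3.19 ± 0.27, and Wwtr1, which encodes Taz, differed by 2.12 ± 0.34. Vgll4, a Tead cofactor that competes with Yap, was higher too, by 1.78 ± 0.19. The list median was 0.28, and -0.01 after median centring, which shifted every difference over all genes by -0.287. After median centring, 11 were higher and 5 lower.

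In the Hedgehog pathway a ligand was lower and 3 receptor genes were higher. In the intestine Ihh from epithelium signals to the mesenchyme. Ihh read 8.05 and 8.27 on the EphB2 High arrays and 10.10 and 10.80 on the EphB2 Low arrays and fell by 2.29 ± 0.26 (adjusted p = 0.00187). Of 7 receptors and co-receptors, 3 were higher and 0 lower. Smo, the membrane transducer, read 8.14 and 8.34 on the EphB2 High arrays and 4.76 and 4.77 on the EphB2 Low arrays, 11.1-fold higher (adjusted p = 0.000131). The co-receptor Boc differed by 2.56 ± 0.17, and Ptch1, the receptor and a pathway target, by 1.21 ± 0.16. A further Boc probe set differed by -0.24 and was not called by limma (adjusted p = 0.356), nor was a further Ptch1 probe set (adjusted p = 0.997). Over the pathway 4 of 15 were higher and 2 lower, close to the background. The counts were 3 higher and 4 lower after median centring.

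In the insulin and IGF system 7 of 21 were higher and 2 lower. Igfbp4, a binding protein that holds IGF away from its receptor, read 10.51 and 10.72 on the EphB2 High arrays and 6.98 and 6.62 on the EphB2 Low arrays, 14.1-fold higher (adjusted p = 0.000151). The receptor Igf1r differed by 2.05 ± 0.26 and the substrate Irs1 by 2.33 ± 0.22, while the substrate Irs2 fell by 1.29 ± 0.20. Grb10, an imprinted adaptor that dampens insulin signalling, read 5.99 and 6.06 on the EphB2 High arrays and 4.38 and 3.14 on the EphB2 Low arrays, a difference of 2.27 ± 0.39. Its Lgr5 sort difference had the opposite sign (-0.88, 1 array a group). There were 4 higher and 2 lower calls without the first EphB2 High array, without the second EphB2 High array 4 and 2, and after median centring 4 and 5.

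The fibroblast growth factor system gave 6 higher and 5 lower of 40, with 0 of 22 ligands higher and 3 lower. Fgf15, the ileal hormone that represses bile acid synthesis in the liver, read 6.08 and 6.398 on the EphB2 High arrays and 9.58 and 10.52 on the EphB2 Low arrays and fell 14.03-fold (adjusted p = 0.00103). Among receptors, Fgfr2 differed by 2.07 ± 0.28 and Fgfr4 by 1.69 ± 0.13. Dusp6, a phosphatase that ends ERK signalling, read 9.33 and 9.46 on the EphB2 High arrays and 11.26 and 11.33 on the EphB2 Low arrays and fell by 1.90 ± 0.12. Receptor tyrosine kinases and phosphatases gave 8 higher and 5 lower of 45. Kit, the stem cell factor receptor, read 8.44 and 9.06 on the EphB2 High arrays and 6.55 and 6.22 on the EphB2 Low arrays, a difference of 2.37 ± 0.29, with an opposite sign in the Lgr5 sort (-0.56). The receptor phosphatase Ptpro was higher by 4.14 ± 0.22, whereas Ptpre fell by 2.40 ± 0.11 and Ptprr by 2.23 ± 0.16. Mertk, a receptor for engulfing dead cells, fell by 2.14 ± 0.14. Counts moved to 5 higher and 4 lower without the second EphB2 High array, with the hybridization as a block 8 and 11, and after median centring 5 and 16.

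Of 64 genes that control MAP kinases, 8 were higher and 18 lower. The scaffold Ksr1 read 9.72 and 9.44 on the EphB2 High arrays and 11.36 and 11.54 on the EphB2 Low arrays and fell by 1.87 ± 0.15. Map3k8, an upstream kinase, was higher by 1.89 ± 0.21, and Map3k20, a kinase of ribosomal stress, by 2.38 ± 0.37. Mapk4, an atypical family member, fell by 1.597 ± 0.17. Calls numbered 4 higher and 12 lower without the second EphB2 High array, without the second EphB2 Low array 5 and 12, and after median centring 5 and 22.

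Genes of TGF-beta and activin signalling gave 6 higher and 4 lower of 31. Of 8 ligands, limma called 0. Fstl1, a follistatin-like secreted protein, read 7.15 and 8.01 on the EphB2 High arrays and 4.36 and 4.14 on the EphB2 Low arrays, 10.04-fold higher (adjusted p = 0.000816). The pseudoreceptor Bambi was higher by 1.42 ± 0.24, with -0.31 in the Lgr5 sort. The receptor Tgfbr2 was higher by 0.94 ± 0.13, and the repressor Skil fell by 1.19 ± 0.11. List counts became 6 higher and 2 lower without the first EphB2 High array, without the second EphB2 High array 4 and 1, and without the second EphB2 Low array 5 and 2.

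Several imprinted and X-linked growth regulators were higher. Of 29 genes of the Bex, Tceal and imprinted list, 10 were higher and 3 lower. Bex4 read 9.22 and 9.92 on the EphB2 High arrays and 6.19 and 5.39 on the EphB2 Low arrays and Bex1 10.73 and 11.31 on the EphB2 High arrays and 8.05 and 7.89 on the EphB2 Low arrays, differences of 3.78 ± 0.36 and 3.05 ± 0.21. These are small acidic adaptor proteins of neural and progenitor cells. Tceal1, from the same X-linked cluster, differed by 2.26 ± 0.33. The imprinted zinc finger gene Plagl1 read 5.29 and 6.22 on the EphB2 High arrays and 3.03 and 2.61 on the EphB2 Low arrays, a difference of 2.93 ± 0.54, and the call was lost without the second EphB2 Low array (adjusted p = 0.0526). Peg3, another imprinted zinc finger gene, went the other way by -1.77, and the call was lost without the second EphB2 High array (adjusted p = 0.0733) and the first EphB2 Low array (adjusted p = 0.0651). Without the second EphB2 High array, 8 were higher and 1 lower, with the hybridization as a block 10 and 5, and after median centring 10 and 5.

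Transcription factors outside the stem cell set were called on both sides. Of 112, 34 were higher and 22 lower. Ets and Myb factors gave 10 higher and 1 lower of 23, and helix-loop-helix and leucine zipper factors 8 higher and 15 lower of 40. Etv5, an Ets factor of growth factor signalling, read 8.86 and 9.22 on the EphB2 High arrays and 7.003 and 5.51 on the EphB2 Low arrays, a difference of 2.79 ± 0.47. Creb3l3, a membrane-bound factor of lipid metabolism in liver and intestine, read 9.28 and 8.41 on the EphB2 High arrays and 12.44 and 12.49 on the EphB2 Low arrays and fell by 3.61 ± 0.30. Mxd1, a Max partner that opposes Myc, fell by 2.79 ± 0.17, with 9.93 and 10.23 on the EphB2 High arrays. The counts were 22 higher and 16 lower without the second EphB2 High array, and without the second EphB2 Low array 26 and 14. Of 76 homeobox and patterning factors, 14 were higher and 6 lower. Tgif2, a Smad corepressor, read 9.65 and 10.23 on the EphB2 High arrays and 7.64 and 6.86 on the EphB2 Low arrays, a difference of 2.69 ± 0.30. Zfhx3 differed by 2.07 ± 0.31 and Hopx, an atypical homeodomain protein of crypt cells, by 1.35 ± 0.20. Barx2 fell by 1.93 ± 0.13, and the trunk patterning gene Hoxa4 was higher by 1.52 ± 0.22 at a low level of 4.39 in EphB2 Medium cells. There were 12 higher and 3 lower calls without the first EphB2 High array, without the second EphB2 High array 7 and 2, without the first EphB2 Low array 10 and 3, and after median centring 10 and 11.

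Genes of cell polarity were called on both sides. Planar polarity gave 8 higher and 1 lower of 22, and apical and basal polarity 6 and 9 of 28; the difference between the classes was not tested. Prickle1 read 7.71 and 7.88 on the EphB2 High arrays and 4.84 and 5.15 on the EphB2 Low arrays and Vangl2 6.43 and 7.06 on the EphB2 High arrays and 5.07 and 4.79 on the EphB2 Low arrays, differences of 2.80 ± 0.21 and 1.81 ± 0.23. Celsr3, an atypical cadherin, was the exception in its class and fell by 2.44 ± 0.35. Celsr2 was higher by 2.23 ± 0.47, and the call was lost without the first EphB2 High array (adjusted p = 0.0549) and the second EphB2 High array (adjusted p = 0.0688). Pard6g, a partner of atypical protein kinase C, differed by 2.53 ± 0.20. Counts moved to 9 higher and 5 lower without the second EphB2 High array.

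Axon guidance genes, which also steer epithelial cells, gave 13 higher and 9 lower of 61, near the background. Sema4c read 7.33 and 7.76 on the EphB2 High arrays and 5.39 and 4.90 on the EphB2 Low arrays and its receptor family member Plxnb1 8.05 and 8.34 on the EphB2 High arrays and 6.37 and 5.64 on the EphB2 Low arrays, differences of 2.40 ± 0.22 and 2.19 ± 0.25. Sema3c was higher by 2.18 ± 0.17 and the Slit-Robo effector Srgap2 by 2.18 ± 0.21. Unc5b, a netrin receptor, read 4.81 and 5.45 on the EphB2 High arrays and 8.20 and 8.18 on the EphB2 Low arrays and fell 8.35-fold (adjusted p = 0.00117). Calls numbered 10 higher and 19 lower after median centring. Of 83 protocadherins and synapse genes, 10 were higher and 11 lower. Pcdh8 was higher by 3.95 ± 0.21, and Dlgap5, which despite its name works at the spindle, by 2.24 ± 0.34. Cntnap2, a neurexin family member, read 3.31 and 3.45 on the EphB2 High arrays and 6.33 and 6.62 on the EphB2 Low arrays and fell by 3.10 ± 0.15. Snap25, a fusion protein of secretory vesicles, fell by 2.47 ± 0.46 and Syt12 by 2.38 ± 0.15. Enteroendocrine markers, which also belong to vesicle-secreting cells, were lower in 5 of 13 and higher in 0, falling to 2 lower without the second EphB2 High array and to 2 lower and 1 higher without the first EphB2 Low array. They had summed linear signals of 11030 to 23254 on the EphB2 High arrays and 34567 to 45384 on the EphB2 Low arrays, and their part in the fall of Snap25 was not tested. List counts became 8 higher and 6 lower without the first EphB2 High array, without the second EphB2 High array 3 and 7, without the second EphB2 Low array 6 and 6, and after median centring 7 and 18.

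**Figure D4:**
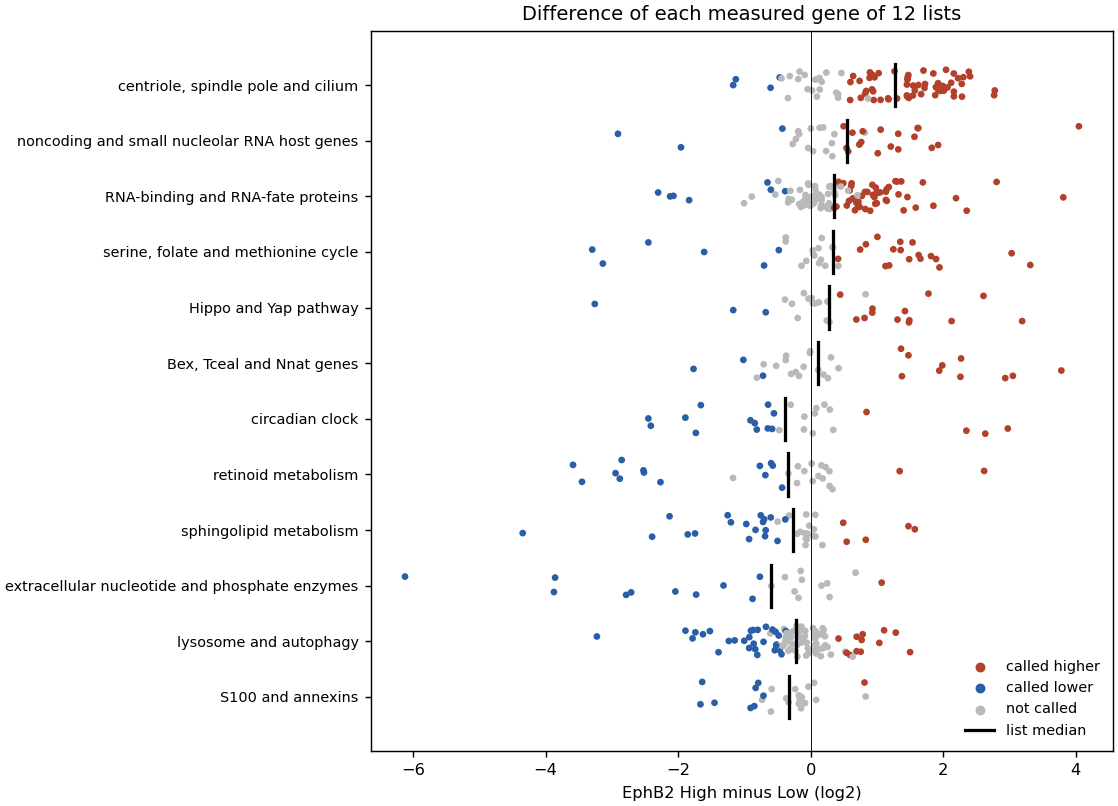
Each point is the EphB2 High minus EphB2 Low difference (log2) of 1 measured gene of 12 lists, red where called higher, blue where called lower and grey where not called, and black bars are list medians. Medians run from 1.26 for the centriole and cilium list to -0.59 for enzymes of extracellular nucleotides, and every list shown holds called genes on both sides.

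Enzymes that cut nucleotides and phosphate esters outside the cell had 10 lower calls in EphB2 High. Of 21, 1 was higher and 10 were lower, with a median of -0.59. Such enzymes turn ATP and NAD at the surface into adenosine. Nt5e, which makes adenosine from AMP, read 5.38 and 4.11 on the EphB2 High arrays and 8.95 and 8.29 on the EphB2 Low arrays and fell 14.7-fold (adjusted p = 0.00252). Enpp3, which hydrolyses extracellular ATP, read 6.65 and 6.90 on the EphB2 High arrays and 11.19 and 10.09 on the EphB2 Low arrays and fell by 3.86 ± 0.38. The alkaline phosphatase genes Alpi and Akp3 fell by 2.71 ± 0.31 and 2.79 ± 0.25, and whether their probe sets tell them apart was not tested. The first EphB2 High array of Alpi, at 11.09, lay above the second, at 10.09, and both lay below the EphB2 Low arrays at 13.26 and 13.34. Enpp4, the single member that was higher, differed by 1.07 ± 0.14.

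Genes of retinoid metabolism were called mostly on the lower side. Of 29, 2 were higher and 13 lower. The pathway cleaves dietary carotene, reduces and stores retinol, and oxidises it to retinoic acid. Bco2, a carotenoid oxygenase, read 9.40 and 9.18 on the EphB2 High arrays and 12.10 and 12.24 on the EphB2 Low arrays and fell by 2.88 ± 0.13 (adjusted p = 0.000184). Retinol dehydrogenase genes Rdh7 and Rdh9 fell by 2.85 ± 0.20 and 2.95 ± 0.28, and Rdh9 had the opposite sign in the Lgr5 sort (0.44). Cross-reading between the probe sets of Rdh7 and Rdh9 was not tested. Aldh1a1, which makes retinoic acid, read 8.82 and 9.16 on the EphB2 High arrays and 12.13 and 12.75 on the EphB2 Low arrays and fell by 3.45 ± 0.26, and its paralogue Aldh1a7 fell by 3.59 ± 0.31; whether the probe sets of this pair tell them apart was not tested. Stra6l, related to the cellular retinol receptor, was higher, with 10.15 and 10.29 on the EphB2 High arrays and 7.88 and 7.33 on the EphB2 Low arrays (2.62 ± 0.21).

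Sphingolipid metabolism gave 5 higher and 18 lower of 40, with breakdown genes at 2 and 10 of 21 and synthesis genes at 3 and 8 of 19. Asah2, the neutral ceramidase of the brush border, read 8.42 and 9.004 on the EphB2 High arrays and 13.04 and 13.08 on the EphB2 Low arrays and fell 20.4-fold (adjusted p = 0.000193). Sphk1, which makes sphingosine 1-phosphate, fell by 2.39 ± 0.21, and Sgpl1, which cleaves it, fell by 1.86 ± 0.15. The lysosomal sialidase Neu1 fell by 2.13 ± 0.13. Acer2, the Golgi alkaline ceramidase, was higher, with 11.76 and 11.63 on the EphB2 High arrays and 10.47 and 9.79 on the EphB2 Low arrays (1.57 ± 0.23). Without the first EphB2 High array, 3 were higher and 14 lower, without the second EphB2 High array 2 and 10, without the second EphB2 Low array 3 and 11, and after median centring 2 and 21.

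Lysosomal and autophagy genes gave 12 higher and 29 lower of 101. Cathepsins and hydrolases gave 11 lower of 37, membrane proteins and proton pump subunits 9 of 30, and autophagy genes 9 of 34. Lipa, the acid lipase, read 6.46 and 6.68 on the EphB2 High arrays and 9.51 and 10.09 on the EphB2 Low arrays and fell by 3.23 ± 0.21 (adjusted p = 0.000407). The proton pump subunit Atp6v0a1 fell by 1.89 ± 0.14, Atp6v0e2 by 1.74 ± 0.25, the membrane scramblase of autophagy Atg9a by 1.78 ± 0.17 and arylsulfatase Arsa by 1.63 ± 0.15. Ctse, an endosomal aspartic protease, was higher by 1.498 ± 0.40 on its brightest probe set and differed by -1.53 on another, which limma also called (adjusted p = 0.00617), so its direction is not settled, and the call was lost without the second EphB2 High array (adjusted p = 0.132), the first EphB2 Low array (adjusted p = 0.12) and the second EphB2 Low array (adjusted p = 0.0854). The counts were 4 higher and 18 lower without the second EphB2 High array, without the second EphB2 Low array 7 and 19, and after median centring 5 and 52.

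Among clock genes more were lower than higher, and the higher ones included a pair that works in replication. Of 26, 4 were higher and 12 lower, with a median of -0.39. The output factor Dbp read 7.77 and 7.66 on the EphB2 High arrays and 9.87 and 10.38 on the EphB2 Low arrays and fell by 2.41 ± 0.19 (adjusted p = 0.000705). The repressor Cry2 read 6.45 and 6.70 on the EphB2 High arrays and 8.97 and 9.08 on the EphB2 Low arrays and fell by 2.45 ± 0.17. Timeless and its partner Tipin, which protect replication forks, differed by 2.63 ± 0.37 and 2.35 ± 0.35, with the second EphB2 Low array lowest in both. Arntl2, a paralogue of the core activator, was higher by 2.97 ± 0.60, and the call was lost without the second EphB2 High array (adjusted p = 0.07). The hour of tissue collection is not in the labels. There were 3 higher and 7 lower calls without the first EphB2 High array, and without the second EphB2 Low array 4 and 7.

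Hypoxia targets gave 2 higher and 10 lower of 28. Egln3, a hydroxylase that marks hypoxia factors for destruction, read 5.51 and 6.07 on the EphB2 High arrays and 10.69 and 11.31 on the EphB2 Low arrays and fell 37.2-fold (adjusted p = 0.000228). The glycolytic regulators Pfkfb3 and Pfkfb4 fell by 3.30 ± 0.18 and 1.92 ± 0.12, the mitophagy receptor Bnip3 by 2.15 ± 0.14, and the factor Epas1 by 1.16 ± 0.18. In all 5 of these genes EphB2 Medium cells lay between the other groups. Ddit4, an inhibitor of the mTOR kinase, was higher, with 13.30 and 13.34 on the EphB2 High arrays and 12.44 and 12.09 on the EphB2 Low arrays (1.06 ± 0.16). Counts moved to 2 higher and 16 lower after median centring.

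Redox enzymes gave 6 higher and 12 lower of 53. Gpx3, a secreted glutathione peroxidase, read 7.02 and 6.37 on the EphB2 High arrays and 10.12 and 9.76 on the EphB2 Low arrays and fell by 3.25 ± 0.41. Xdh, the purine-oxidising dehydrogenase, fell by 2.74 ± 0.27, the monoamine oxidase Maob by 2.72 ± 0.26, and sulfiredoxin Srxn1 by 1.94 ± 0.12. Msrb2, which repairs oxidised methionine in mitochondria, was higher by 1.33 ± 0.27, and the call was lost without the second EphB2 High array (adjusted p = 0.0652). Calls numbered 1 higher and 10 lower without the second EphB2 High array, and after median centring 4 and 21. Zinc transporters and metallothioneins gave 4 higher and 9 lower of 29. Slc30a10, a manganese exporter of this family, read 4.95 and 4.29 on the EphB2 High arrays and 9.48 and 9.87 on the EphB2 Low arrays and fell 33.3-fold (adjusted p = 0.000219). The zinc exporters Slc30a1 and Slc30a2 fell by 1.48 ± 0.17 and 1.74 ± 0.21, while the importers Slc39a10 and Slc39a6 were higher by 2.27 ± 0.18 and 2.08 ± 0.23.

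Calcium-binding S100 proteins and annexins gave 1 higher and 8 lower of 25. S100g, the calbindin of calcium uptake, read 11.41 and 11.11 on the EphB2 High arrays and 12.73 and 13.07 on the EphB2 Low arrays and fell by 1.64 ± 0.18. S100a6 fell by 1.66 ± 0.17, Anxa3 by 1.45 ± 0.18 and the intestinal annexin Anxa13 by 0.91 ± 0.12. The single higher member, S100pbp, is an S100-binding nuclear protein and not a family member; it differed by 0.81 ± 0.20, and the call was lost without the second EphB2 High array (adjusted p = 0.0972), the first EphB2 Low array (adjusted p = 0.096) and the second EphB2 Low array (adjusted p = 0.0804). List counts became 0 higher and 17 lower after median centring. Vitamin D and calcium genes gave 2 higher and 4 lower of 21. Cyp27a1, a sterol and vitamin D hydroxylase, read 9.15 and 9.01 on the EphB2 High arrays and 11.49 and 11.22 on the EphB2 Low arrays and fell by 2.27 ± 0.16, and Atp2c2, a Golgi calcium pump, was higher by 1.66 ± 0.24. Trpv6, the apical calcium channel, fell by 1.28 ± 0.30, and the call was lost without the second EphB2 High array (adjusted p = 0.107) and the second EphB2 Low array (adjusted p = 0.053). With the hybridization as a block, 4 were higher and 4 lower, and after median centring 2 and 11.

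Aquaporins and carbonic anhydrases gave 4 higher and 8 lower of 27. Aqp4, a water channel of crypt cells, read 12.20 and 12.34 on the EphB2 High arrays and 10.23 and 9.09 on the EphB2 Low arrays, a difference of 2.61 ± 0.35. Aqp8 fell by 2.22 ± 0.23 and Aqp7, which also passes glycerol, by 2.60 ± 0.32, both from dim levels below 7 on every array. The membrane carbonic anhydrase Car12 was higher by 2.09 ± 0.19, and Car8, which lacks catalysis and binds the IP3 receptor, by 1.75 ± 0.16. Cation channels gave 11 higher and 19 lower of 140, below the background on the higher side. Scn2b, a sodium channel beta subunit, read 10.93 and 11.48 on the EphB2 High arrays and 7.94 and 7.36 on the EphB2 Low arrays, 11.7-fold higher (adjusted p = 0.000649). Kcnd3 was higher by 2.34 ± 0.22, with -0.97 in the Lgr5 sort. Kcnj13 fell by 2.76 ± 0.19, the calcium channel subunit Cacna2d1 by 2.04 ± 0.31 and the acid-sensing channel Asic1 by 1.89 ± 0.13. The counts were 11 higher and 12 lower without the first EphB2 High array, without the second EphB2 High array 8 and 11, and after median centring 11 and 32.

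Chemokines and cytokines were called near or below the background shares, apart from chemokines on the lower side. Of 32 chemokines, 1 was higher and 8 were lower, and of 49 cytokines 5 were higher and 6 lower. Il33, an alarmin held in nuclei, read 5.70 and 6.11 on the EphB2 High arrays and 11.16 and 11.21 on the EphB2 Low arrays and fell 38.9-fold (adjusted p = 6.84e-05). Il18 read 9.98 and 9.38 on the EphB2 High arrays and 12.97 and 13.12 on the EphB2 Low arrays and fell by 3.37 ± 0.22. Cxcl11, an interferon-induced chemokine, fell by 3.81 ± 0.28, Cx3cl1 by 2.71 ± 0.14 and the myeloid growth factor Csf2 by 2.85 ± 0.16. Tnfsf9, the ligand of a T cell costimulatory receptor, was higher by 1.96 ± 0.29, with -0.29 in the Lgr5 sort. Of 15 lymphocyte markers 4 were lower and 1 higher, and without either EphB2 High array 2 were lower. They had summed linear signals of 425 to 520 on the EphB2 High arrays and 510 to 591 on the EphB2 Low arrays, and their part in these differences was not tested. There were 6 higher and 28 lower calls after median centring.

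Surface glycoproteins gave 16 higher and 28 lower of 118. Cd44, the hyaluronan receptor and a Wnt target, read 11.66 and 11.67 on the EphB2 High arrays and 9.31 and 8.12 on the EphB2 Low arrays, 7.74-fold higher (adjusted p = 0.00262). Cd36, the fatty acid receptor, read 5.15 and 4.72 on the EphB2 High arrays and 9.10 and 9.63 on the EphB2 Low arrays and fell by 4.43 ± 0.25. Ceacam18 fell by 3.52 ± 0.25, the lectin-like gene Clec2e by 4.95 ± 0.26, and Reg3a, a secreted lectin active against bacteria, by 3.77 ± 0.18. Counts moved to 10 higher and 24 lower without the first EphB2 High array, without the second EphB2 High array 7 and 22, and after median centring 13 and 45. Glycan synthesis gave 19 higher and 24 lower of 135, with hexosaminyl- and galactosyltransferases at 5 and 16 of 57. Sialyltransferases went both ways. St3gal4 read 7.81 and 7.86 on the EphB2 High arrays and 11.42 and 11.63 on the EphB2 Low arrays and fell by 3.69 ± 0.14, while St3gal3 was higher by 2.75 ± 0.14 and St6gal1 by 2.39 ± 0.41. The chondroitin sulfotransferase Chst11 was higher by 2.81 ± 0.24 and the glypican Gpc2 by 2.36 ± 0.17. Calls numbered 14 higher and 38 lower after median centring.

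Membrane and secreted proteases were called below the background shares in both directions, with 11 higher and 12 lower of 98. Those called included wide gaps. Ace, the angiotensin-converting peptidase of the brush border, read 7.07 and 7.13 on the EphB2 High arrays and 11.68 and 11.77 on the EphB2 Low arrays and fell 24.7-fold (adjusted p = 6.84e-05). Mme, the neutral endopeptidase, fell by 3.60 ± 0.26. Also on the list, though not proteases themselves, the secreted Adamtsl5 fell by 4.10 ± 0.12 and tissue factor F3 by 2.71 ± 0.36. List counts became 7 higher and 11 lower without the first EphB2 High array, and after median centring 7 and 26. Serpins and other inhibitors gave 8 higher and 10 lower of 58. Serpina1c, an alpha-1-antitrypsin gene with near-identical copies, read 4.36 and 4.35 on the EphB2 High arrays and 9.34 and 9.53 on the EphB2 Low arrays and fell 33.8-fold, on a probe set that those copies may share. The cystatin Cst6 fell by 3.10 ± 0.17 and the trypsin inhibitor Spink1 by 2.43 ± 0.16, while Wfdc2 was higher by 1.597 ± 0.22. After median centring, 6 were higher and 17 lower.

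Phosphoinositide signalling gave 16 higher and 24 lower of 90, with lipid phosphatases at 2 and 11 of 30 and phospholipases C at 5 and 1 of 13. Plpp1, which dephosphorylates lipid phosphates, read 10.37 and 10.10 on the EphB2 High arrays and 12.87 and 13.00 on the EphB2 Low arrays and fell by 2.70 ± 0.14. Plcd1 fell by 2.41 ± 0.20 and Plcb4 was higher by 2.34 ± 0.14. The counts were 11 higher and 13 lower without the first EphB2 High array, without the second EphB2 High array 12 and 10, without the second EphB2 Low array 13 and 14, and after median centring 11 and 37. Cyclic nucleotide signalling gave 10 higher and 10 lower of 56. Of the named genes of cyclic AMP, the phosphodiesterases Pde4b and Pde3b were higher by 3.19 ± 0.19 and 2.58 ± 0.23 and the protein kinase A subunit Prkacb by 2.53 ± 0.31. Guca2b, the uroguanylin peptide that raises cyclic GMP, read 10.89 and 10.88 on the EphB2 High arrays and 13.37 and 13.52 on the EphB2 Low arrays and fell by 2.56 ± 0.12, and Prkg2, a kinase activated by cyclic GMP, fell by 1.44 ± 0.14. There were 8 higher and 6 lower calls without the first EphB2 High array, without the second EphB2 High array 7 and 5, without the second EphB2 Low array 7 and 6, and after median centring 7 and 19.

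Receptors and regulators of G-proteins gave 31 higher and 27 lower of 178. Rgs19 read 9.09 and 8.86 on the EphB2 High arrays and 5.88 and 5.75 on the EphB2 Low arrays, 8.92-fold higher (adjusted p = 0.00015), and Rgs12 was higher by 2.81 ± 0.24. Both speed the switching-off of G-protein alpha subunits. Gpr155, a lysosomal cholesterol sensor, read 8.51 and 8.41 on the EphB2 High arrays and 11.33 and 11.75 on the EphB2 Low arrays and fell by 3.08 ± 0.16. Counts moved to 20 higher and 24 lower without the first EphB2 High array, without the second EphB2 High array 18 and 23, and after median centring 21 and 54. Eicosanoid genes gave 9 higher and 10 lower of 35, with breakdown at 1 and 5 of 9. Pla2g4a, which releases arachidonic acid, read 9.94 and 10.18 on the EphB2 High arrays and 7.31 and 6.61 on the EphB2 Low arrays, a difference of 3.10 ± 0.26. Pla2g2a, a secreted phospholipase of Paneth cells, was higher by 2.76 ± 0.13 and had -0.91 in the Lgr5 sort. Slco2a1, the prostaglandin transporter, read 7.95 and 7.56 on the EphB2 High arrays and 10.73 and 10.73 on the EphB2 Low arrays and fell by 2.98 ± 0.16, and Pla2g12b fell by 2.23 ± 0.22.

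Ubiquitin ligases gave 48 higher and 55 lower of 226. Trim30a read 6.49 and 6.45 on the EphB2 High arrays and 10.02 and 9.26 on the EphB2 Low arrays, Trim30d 8.42 and 8.35 on the EphB2 High arrays and 11.80 and 11.67 on the EphB2 Low arrays and Herc6 5.38 and 4.97 on the EphB2 High arrays and 8.69 and 8.28 on the EphB2 Low arrays; these interferon-induced ligases fell by 3.17 ± 0.35, 3.35 ± 0.15 and 3.31 ± 0.21, and Trim30a and Trim30d are close paralogues. Trim15, an adhesion site ligase, fell by 3.67 ± 0.28. Rnf150 was higher by 3.30 ± 0.36, with the second EphB2 Low array lowest at 3.83. Calls numbered 29 higher and 37 lower without the second EphB2 High array, and after median centring 29 and 79. Targets of p53 gave 9 higher and 6 lower of 30. Fas, the death receptor, read 7.18 and 7.14 on the EphB2 High arrays and 10.72 and 11.05 on the EphB2 Low arrays and fell 13.3-fold (adjusted p = 0.000131). Eda2r was higher by 2.95 ± 0.32, Ckap2 by 2.62 ± 0.22, the Akt inhibitor Phlda3 by 2.11 ± 0.22 and the nuclease Aen by 1.72 ± 0.28. List counts became 7 higher and 12 lower after median centring.

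Beside the Lgr5 sort, which used the reporter allele and other arrays, most of these differences had the same sign. Of genes higher by at least 2-fold, 1863 of 2035 (91.5%) were also higher in Lgr5 High than in Lgr5 Low, and of genes lower by at least 2-fold, 1252 of 1339 (93.5%) were also lower. With 1 array a group the Lgr5 sort allows no test, and an opposite sign there is not marked for every gene named above. The median Lgr5 sort difference was 0.44 over the higher genes, whose EphB2 median was 1.54, and -0.81 over the lower genes, whose EphB2 median was -1.67. Lgr5 itself differed by 4.25 in the EphB2 sort and by 4.39 in the Lgr5 sort.

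Opposite signs by at least 1 unit in the Lgr5 sort were found for 43 higher and 7 lower genes, counted among all calls and not only those at least 2-fold apart. On the higher side, the named genes included markers of tuft cells, the chemosensory cells of the epithelium. Rgs13 read 8.31 and 8.08 on the EphB2 High arrays and 4.67 and 3.84 on the EphB2 Low arrays and differed by 3.94 ± 0.50, with -1.38 in the Lgr5 sort. Dclk1, the tuft cell kinase, differed by 3.36 ± 0.53 and -1.74, the lipid kinase Pik3cg by 2.79 ± 0.41 and -1.43, and the leukotriene cofactor Alox5ap by 2.18 ± 0.40 and -1.15. Spib, a factor of secretory and immune lineages, gave 2.50 ± 0.28 and -1.45, and Retnlb, an antibacterial goblet cell protein, 2.23 ± 0.26 and -1.72. The glycogen phosphorylase Pygl gave 2.59 ± 0.57 and -1.47, and the call was lost without the first EphB2 High array (adjusted p = 0.0786), the second EphB2 High array (adjusted p = 0.0573) and the second EphB2 Low array (adjusted p = 0.0845). The mucin glycosyltransferase A4gnt gave 2.02 ± 0.45 and -1.22, and the call was lost without the second EphB2 High array (adjusted p = 0.0906) and the second EphB2 Low array (adjusted p = 0.0606). Of 9 tuft markers 6 were higher and 1 lower in EphB2 High, falling to 3 higher without the first EphB2 High array or without the second EphB2 Low array. They had summed linear signals of 3323 and 2157 on the EphB2 High arrays and 861 and 575 on the EphB2 Low arrays, and their part in these differences was not tested. Of the markers called at least 2-fold apart, 1 of 6 for tuft cells, 1 of 4 for Paneth cells and 0 of 2 for goblet cells had the same sign in the Lgr5 sort, against 5 of 5 for enteroendocrine cells.

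On the lower side the opposite genes with an assigned function were Slfn2, Gzma, Crim1 and Sectm1a. Slfn2, a regulator of immune cell quiescence, read 7.68 and 6.96 on the EphB2 High arrays and 9.75 and 9.58 on the EphB2 Low arrays and fell by 2.35 ± 0.27, with 1.19 in the Lgr5 sort. The lymphocyte protease Gzma read 3.35 and 3.14 on the EphB2 High arrays and 6.03 and 4.55 on the EphB2 Low arrays, and differed by -2.04 and 3.005 in the EphB2 and Lgr5 sorts; the call was lost without the first EphB2 High array (adjusted p = 0.0779) and the second EphB2 High array (adjusted p = 0.106). Crim1, a BMP-binding membrane protein, gave -1.02 and 1.58; the call was lost without the first EphB2 High array (adjusted p = 0.0738), the second EphB2 High array (adjusted p = 0.142) and the second EphB2 Low array (adjusted p = 0.0901), and with the hybridization as a block at 0.0509. For Sectm1a, at -0.88 and 1.64, the call was lost without the first EphB2 High array (adjusted p = 0.087), the first EphB2 Low array (adjusted p = 0.0717) and the second EphB2 Low array (adjusted p = 0.0747).

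**Figure D5:**
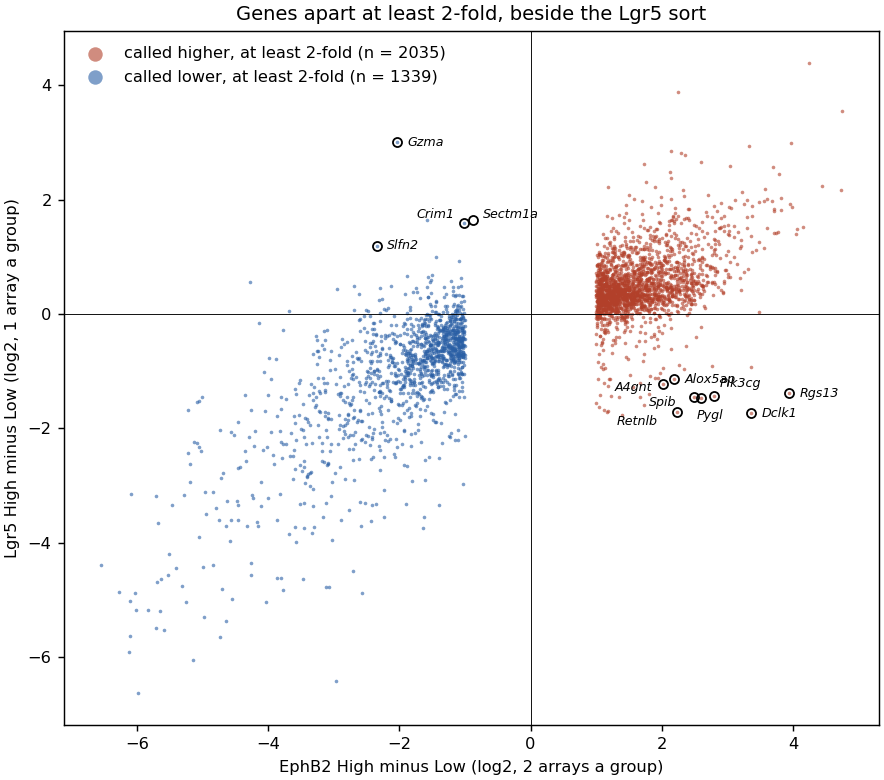
Points are the 2035 higher (red) and 1339 lower (blue) genes called and at least 2-fold apart, with the EphB2 High minus Low difference on the horizontal axis and the Lgr5 High minus Low difference on the vertical axis, both log2. Most points fall in the lower left and upper right, and rings mark genes named, from all calls, for an opposite sign by at least 1 unit, among them Rgs13 and Dclk1 at the lower right. The ring of Sectm1a, which at -0.88 is under 2-fold, is not around one of the plotted points.

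A few bright genes differed between the hybridizations in size though not in sign. Gip, the incretin hormone of enteroendocrine cells, read 11.67 and 9.17 on the EphB2 High arrays and 13.58 and 13.18 on the EphB2 Low arrays, with the second EphB2 High array far below the first, and the call was lost without the second EphB2 High array (adjusted p = 0.0722), the first EphB2 Low array (adjusted p = 0.132) and the second EphB2 Low array (adjusted p = 0.109). Ifitm3, an antiviral membrane protein, read 13.21 and 13.31 on the EphB2 High arrays and 11.53 and 10.08 on the EphB2 Low arrays, with the EphB2 Low arrays apart. Uhrf1, the factor that maintains DNA methylation, read 12.44 and 12.66 on the EphB2 High arrays and 11.45 and 10.22 on the EphB2 Low arrays, a difference of 1.72 ± 0.39, and the call was lost without the first EphB2 High array (adjusted p = 0.0601) and the second EphB2 High array (adjusted p = 0.0884). Cdkn2b, a cell cycle inhibitor, read 9.93 and 9.16 on the EphB2 High arrays and 12.29 and 12.94 on the EphB2 Low arrays and fell by 3.07 ± 0.33, an 8.39-fold fall. Ube2c, a ubiquitin-conjugating enzyme of mitosis, differed by 1.88 ± 0.36, and the call was lost without the second EphB2 High array (adjusted p = 0.0582).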

How the data were processed

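The deposited table holds log2 values per Affymetrix probe set, which the authors made with RMA per the submitters' processing notes; its version, and whether all 8 arrays were normalized together, are not given in the sources used here. Of 45101 rows, 64 were controls, 34945 named exactly 1 gene, 932 named several and 9160 were unnamed here, by GEO's platform annotation; 34742 of the 34945 matched the RefSeq table by gene ID. The brightest probe set of each of 18193 genes was kept. limma 3.58.1 in R 4.3.3 was fitted to the 6 EphB2 arrays with 3 groups and no block, leaving 3 residual degrees of freedom, and p-values were adjusted by Benjamini-Hochberg over all genes and called below 0.05. Only 2 arrays a group limit the precision. The code was tested on simulated data.

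Per the labels, a replicate number marks a shared hybridization among the EphB2 arrays. Arrays that share a number deviated together, with correlations of 0.452 (High and Medium), 0.212 (Low and Medium) and 0.131 (High and Low), so the number was also fitted as a block. Alternatives were leaving out each array, the 4 arrays alone, a filter on dim genes, quantile normalization, median centring, all single-gene probe sets, the mean of probe sets, a variance trend with robust moderation, and a test against a 1.5-fold change.

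The comparison, the 44 lists (2790 genes measured, 106 names unmatched) and the markers were chosen with earlier results of these data known, so list counts are descriptions. Genes were named by rule: the 20 widest non-overlapping calls in each direction, 5 genes per list and 1 in the opposite direction where the 5 agreed in sign, the brightest calls at least 2-fold apart, those with hybridizations farthest apart, those opposite in the Lgr5 sort, the sort markers and the 3 brightest markers of each cell type; not every gene that the rule gives is printed. Of 314 named genes, 169 had further probe sets and 26 had at least 1 of the opposite sign. For 2 of these, Ctse and Smox, limma called it. The 26 also include Acer2, Amotl1, Arntl2, Boc, Cacna2d1, Car12, Cyp27a1, Dus4l, Fgfr2 and Grb10. Kcnd3, Msi1, Neat1, Nt5e, Peg3, Plagl1, Plcb4, Ptch1 and Slc4a1 belong to them as well. Differences given above for these genes are from the brightest probe set unless stated. Promoters are from a RefSeq table (GRCm38.p6). Results for 1 group of genes are not reported here.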

Additional observations from a re-analysis of the deposited data

How the results depend on the processing

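Leaving out 1 array at a time gave 4245 to 6160 called genes in place of 6792, 2476 to 3639 higher, 1769 to 2539 lower, and 2945 to 3721 at least 2-fold apart; the lone array of a group was assumed to vary like the others. Testing all 34945 single-gene probe sets gave 11223 calls, 6564 higher and 4659 lower, with 5999 at least 2-fold apart, because more features were tested. A test against a 1.5-fold change, which asks for more, gave 2653 calls, 1552 higher and 1101 lower. Median centring gave 4993 lower calls. With the hybridization as a block, 7463 genes were called, 4325 higher and 3138 lower, with 3404 at least 2-fold apart, and 6677 of the 6792 calls were shared; among named genes the pairing gave calls to Ang4 (adjusted p = 0.017) and Vim (0.0079), took that of Crim1 (0.0509) and changed no other call. The other settings stayed within 1.5 times the counts. Signs turned for Agr2 (-0.10) and Alas2 (-0.25) after median centring, for Alas2 without the first EphB2 High array (-0.22), for Slc4a1 without the second (-0.31 to 0.10 over arrays left out), for Hba-a1 (-0.50 to 0.30) and Pdgfrb (-0.50 to 0.25) without the second EphB2 Low array, and for Ctse with the mean of its probe sets (-0.014); limma called only Ctse of these, and apart from the construction of each setting the cause was not tested. With 2 arrays a group and dim probe sets near the floor, small differences cannot be seen.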
